A study of Mus musculus with 35 samples.

Results

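The replication-dependent core histone genes were followed through 3 RNA-seq experiments in mouse cells with different Tet3 alleles. The genes were taken by name, as every row of the deposited expression tables whose symbol is H2ac, H2bc, H3c or H4c followed by a number. That gave 46 genes, of which 12 encode H2A, 13 encode H2B, 10 encode H3 and 11 encode H4. The day 3 table held 43 of them among 17948 genes, the Dnmt1 table held 46 among 18091 genes and the Tet3 catalytic domain table held 39 among 17705 genes, and 37 were in all 3 tables. After a filter that kept genes with a mean normalized read count of at least 10, 43, 46 and 38 of them remained. Another 12 names of the same kind in the RefSeq gene list were not analysed here.

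TET3 is a dioxygenase that oxidises 5-methylcytosine, and the study asked what it does through this activity and without it when embryonic stem cells become neuroectoderm. All cells were V6.5 male mouse embryonic stem cells of mixed 129/C57BL/6 background, differentiated to neuroectoderm by withdrawing LIF and adding 1 µM retinoic acid for 72 h, and they were Tet3 wild type (Tet3+/+), homozygous for substitutions in the iron-binding site that remove catalytic activity (Tet3m/m) or knockout by CRISPR deletion of an exon (Tet3-/-). In the day 3 experiment there were 3 wild-type, 3 mutant and 2 knockout samples, described by the study as independent clones. In the Dnmt1 experiment cells of each genotype received myc-tagged Dnmt1 from a pCAG-IRES-blast plasmid or the empty vector (EV) and were selected with blasticidin, with 2 samples per genotype and vector. In the Tet3-CD experiment each genotype received the HA-tagged Tet3 catalytic domain or the empty FUW-HA-2A-tdTomato vector, with 1 sample per genotype and vector, and no test was made there. For these samples the study's methods place the transfection within the differentiation and the collection after the 72 h that the labels give. The sources do not say whether the 2 samples of a Dnmt1 group came from separate clones, and p-values then measure only the spread between these samples. Comparisons of the mutant and of the knockout with the wild type shared the same wild-type samples within an experiment.

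Core histones are needed in bulk when DNA is copied, and the replication-dependent genes that supply them are transcribed in S phase under the co-activator NPAT. Their messenger RNAs carry no introns and, unlike other mRNAs, end in a short stem-loop instead of a poly(A) tail. The stem-loop binding protein SLBP holds that end and guides its processing, translation and decay. The genes are clustered and present in many near-identical copies, whereas the replacement variants such as H3.3 and H2A.Z come from ordinary polyadenylated genes outside S phase control.

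The end of the transcript is shown first because it defines the family. The letters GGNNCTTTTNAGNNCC were searched on the transcript strand of the GENCODE mouse transcripts. They occurred in 31 of the 45 members with a GENCODE transcript (6 of 11 H2A, 9 of 13 H2B, 7 of 10 H3 and 9 of 11 H4) and in 89 of all 55450 GENCODE genes, of which 58 were not members. The stem-loop stands in capitals in the following 26-base stretches, which are given for the members that the results below turn on.
H2ac6: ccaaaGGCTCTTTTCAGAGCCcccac
H2ac8: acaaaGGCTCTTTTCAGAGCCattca
H3c3: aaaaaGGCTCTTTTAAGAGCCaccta
H4c9: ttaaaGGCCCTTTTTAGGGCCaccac
In 17 members the annotated transcript stopped within 100 bases of the stem-loop, as in H3c3 with 74 further bases. In 14 members every annotated transcript with the letters ran on for at least 100 bases past them, by 151 bases in H2ac8, 330 in H4c9 and 2010 in H2ac6. The annotated transcripts of the other 14 members carried no such letters, among them H2bc4 with its transcript of 1156 bases. Several of these annotated transcripts were short, with 312 bases in H4c12, 381 in H2bc13 and 393 in H2ac13. An annotated transcript that stops before the stem-loop cannot show it. For such short transcripts the missing letters describe the annotation, and these members may still have a stem-loop. Other transcripts of this class were longer, as in H2bc4, in H2bc21 with 2620 bases and in H4c1 with 539. Why those lack the letters was not tested.

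The promoters also differed by histone type. RefSeq windows from 250 bases before to 50 bases after the start (build GRCm38.p6) were found for 40 members. The octamer ATTTGCAT, read on either strand, lay in 5 of 11 H2A and 5 of 11 H2B windows but in 0 of 8 H3 and 0 of 10 H4 windows, against 1.74% of 32851 windows of the whole table. The letters CCAAT lay in all 11 H2A, all 11 H2B and all 8 H3 windows and in 3 of 10 H4 windows, against 37.4% of all windows, and TATAAA lay in 25 of 40 windows, against 13.6%. Any of these may overlap another. The following windows, all on the minus strand of the genome and written 5′ to 3′, show these letters in capitals on either strand for 4 genes described below. H2ac8 and H2ac6 hold the octamer, H3c3 holds 5 CCAAT copies, and H4c9 holds only TATAAA.
H2ac8, chr13:23571171-23571470: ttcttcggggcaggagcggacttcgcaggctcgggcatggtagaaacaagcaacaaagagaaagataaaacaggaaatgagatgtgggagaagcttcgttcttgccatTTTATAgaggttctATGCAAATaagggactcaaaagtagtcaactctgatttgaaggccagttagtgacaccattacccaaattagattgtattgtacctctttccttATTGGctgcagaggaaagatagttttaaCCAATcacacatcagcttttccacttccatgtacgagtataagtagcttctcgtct
H2ac6, chr13:23683910-23684209: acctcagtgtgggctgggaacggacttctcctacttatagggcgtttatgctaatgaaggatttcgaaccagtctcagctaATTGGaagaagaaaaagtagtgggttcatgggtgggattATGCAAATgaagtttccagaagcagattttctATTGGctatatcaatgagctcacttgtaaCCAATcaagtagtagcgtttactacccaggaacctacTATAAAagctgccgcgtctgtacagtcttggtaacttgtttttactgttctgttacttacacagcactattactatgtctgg
H3c3, chr13:23745472-23745771: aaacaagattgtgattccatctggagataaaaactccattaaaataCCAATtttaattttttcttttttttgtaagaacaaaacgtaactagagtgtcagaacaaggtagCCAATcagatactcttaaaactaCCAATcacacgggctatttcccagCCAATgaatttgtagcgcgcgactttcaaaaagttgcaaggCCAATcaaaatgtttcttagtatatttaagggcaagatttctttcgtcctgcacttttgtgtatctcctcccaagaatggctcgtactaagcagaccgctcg
H4c9, chr13:22041313-22041612: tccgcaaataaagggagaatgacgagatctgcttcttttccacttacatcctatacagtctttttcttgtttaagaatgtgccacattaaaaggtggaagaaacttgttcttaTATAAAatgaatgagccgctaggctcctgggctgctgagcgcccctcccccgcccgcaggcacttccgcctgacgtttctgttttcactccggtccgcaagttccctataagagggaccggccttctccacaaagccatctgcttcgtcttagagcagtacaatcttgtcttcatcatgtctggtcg
A match of letters is a description of the window and not a mapped binding site.

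The members were a small part of each library, with summed counts of 1171 to 4965 per sample. Total reads recovered from the tables ranged from 36594650 to 47710548 per day 3 sample, from 31155842 to 50845950 per Dnmt1 experiment sample and from 33475041 to 37707719 per Tet3-CD experiment sample, and 1 read was worth 0.804 to 1.30 normalized counts, so members near the lowest mean (12.2 on day 3) rested on about as many reads. On day 3, 12 members had a mean under 20. A few members held much of the signal. The 4 highest (H2bc4, H4c9, H3c3 and, depending on the table, H2bc21 or H2ac8) held 43.1%, 44.2% and 48.3% of the summed member counts in the day 3, Dnmt1 and Tet3-CD tables. Per kilobase of the longest GENCODE transcript, mean normalized read counts on day 3 were 421 for H2bc4, 391 for H4c9, 196 for H3c3 and 127 for H2ac8, and in the Dnmt1 experiment 762 for H4c9, 470 for H2bc4, 314 for H3c3 and 298 for H2ac8. Members with an extended transcript end had a median of 27.4 normalized counts per kilobase on day 3, against 55.0 for those that stop near the stem-loop. Before division by length the order was the other way, with medians of 46.8 and 26.7. The extended class is defined by added annotated length, so the lower value per kilobase is partly built in.

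Because the copies resemble each other, reads can be shared between them. Over the members, a median of 62.9% of the 100-base windows of the transcript were found in no other GENCODE gene, with a range from 8.01% in H3c10 to 100%, and 16 members were under 50%. The median was 36.4% for H2A, 67.2% for H2B, 60.0% for H3 and 81.0% for H4. H4c9 (84.9%), H2bc4 (74.6%), H3c3 (71.6%), H2ac8 (69.3%) and H2ac6 (91.9%) were mostly distinct. How reads with several matches and reads of either strand were counted is not given in the sources used here, so values of single copies with few distinct windows are uncertain.

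**Figure D1:**
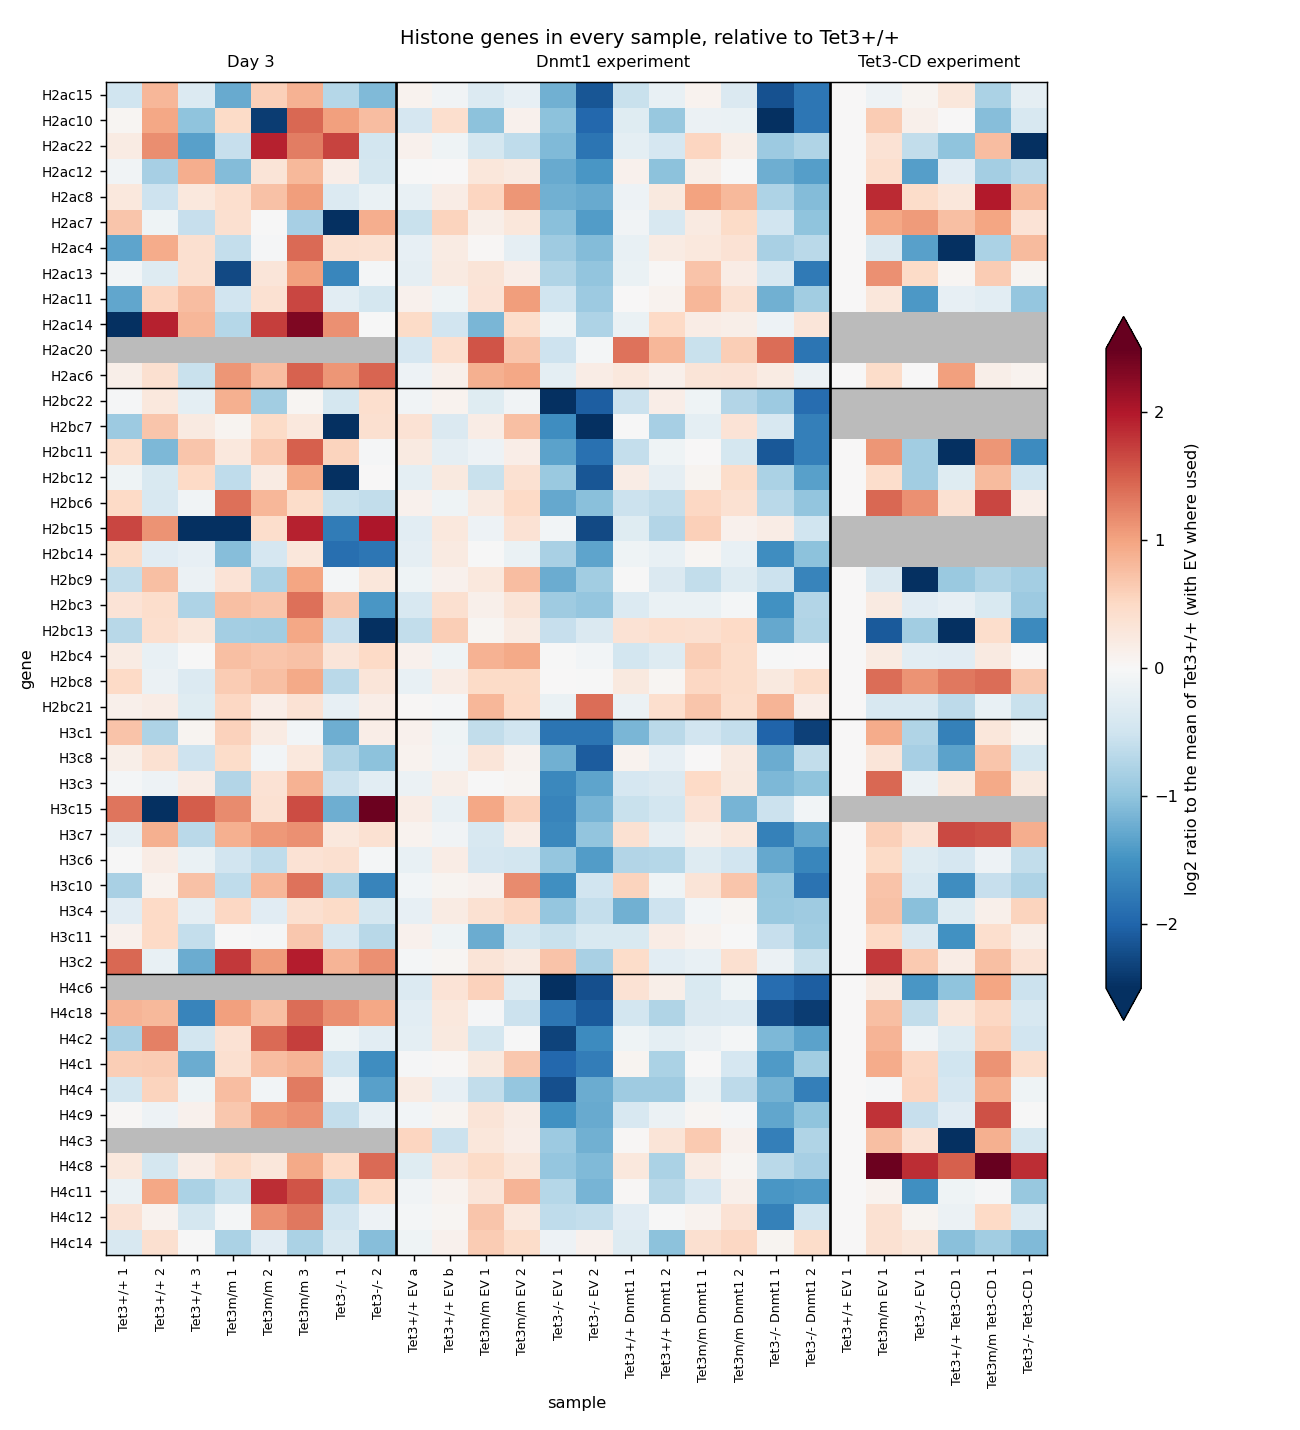
Heat map of the log2 ratio of each member (rows, by histone type) in each sample (columns, by experiment and group) to the mean of the wild-type samples of that experiment (day 3 wild type, or wild type with empty vector). The EV Tet3-/- columns of the Dnmt1 experiment are blue over most rows, with 2 and 3 of 46 members above the wild-type mean, and mutant sample 3 of day 3 is red over 40 of 43 rows.

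The samples were checked against their labels with Tet3 itself. On day 3, Tet3 measured 4613, 4576 and 5020 normalized counts in the wild type, 2666, 2277 and 1945 in the mutant and 1796 and 2329 in the knockout, so neither mutant nor knockout overlapped the wild type. In the EV samples it measured 2957 and 3075 in the wild type, 1125 and 964 in the mutant and 2520 and 2571 in the knockout (log2 fold change -0.24 in the knockout, not called). A count per gene does not resolve the deleted exon. On day 3, however, the same count was called lower in the knockout (-1.21), so the EV knockout samples differed from those of day 3. The label of the EV knockout samples is therefore not checked by Tet3, and why the experiments differ was not tested. In the Tet3-CD table Tet3 measured 4755 with EV and 5441 with Tet3-CD in the wild type, 1850 and 5232 in the mutant and 2070 and 2759 in the knockout, so it was higher with Tet3-CD in each genotype and the ratio was smallest in the wild type. Of 8 neuroectoderm markers, Nes, Sox1, Sox2, Sox3, Pax6 and Zic1 were present in every sample of both replicated experiments (Pax6 between 231 and 2063, Sox1 between 250 and 3013). Zic1 was lowest in the EV mutant, at 64.0 and 70.3. Neurog2 was low throughout (5.20 to 123), and Hes5 was at 0 in mutant sample 1 of day 3 and at 5.30 in knockout sample 1, against 129 to 243 in the wild type of day 3. In the EV samples Hes5 was low in every genotype, at 20.7 and 19.7 in the wild type, 15.5 and 9.12 in the mutant and 59.3 and 52.9 in the knockout. The states differed between groups. The summed counts of the pluripotency genes Nanog, Pou5f1, Zfp42 and Esrrb were 16430 to 16482 in EV wild type, 43731 to 44302 in EV mutant and 2282 to 2387 in EV knockout. Of the 8 neuroectoderm markers, 4 were called lower (Nes, Pax6, Sox1 and Zic1) and 2 higher (Sox2 and Sox3) in the EV mutant, and 3 were called in each direction in the EV knockout.

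On day 3 the catalytic mutant had more core histone RNA than the wild type in most members, but single genes seldom passed the test. Summed over the 43 members, normalized counts were 2008, 2057 and 1884 in the wild type and 2437, 2734 and 3524 in the mutant, 1.46-fold higher on average, and the samples did not overlap. From these bulk RNA counts alone, a different share of cells of 1 kind and a different amount of histone RNA per cell cannot be told apart. By type the ratio was 1.42 for H2A, 1.504 for H2B, 1.22 for H3 and 1.71 for H4, and the mutant samples lay above all wild-type samples for H2B (1007 to 1217 against 684 to 810) and H4 (583 to 881 against 397 to 484), whereas H2A (255 to 603 against 249 to 332) and H3 (533 to 824 against 491 to 557) overlapped. The separation of H4 rested on H4c9. Without H4c9 the H4 genes summed to 237 to 400 in the mutant against 163 to 286 in the wild type, a ratio of 1.45 with overlap. Without H2bc4 the H2B genes were at 412 to 605 against 332 to 390, a ratio of 1.35 without overlap. Fold changes were positive for 35 of 43 members with a median of 0.52 on the log2 scale. A gene was called changed when limma gave an adjusted p under 0.05 and a fold above 1.5, with fold changes on the log2(count + 1) scale, which understates the change of low genes. By this rule 2 members, H4c9 and H2bc4, were higher and 0 were lower, 4.65% of the members against 5.06% of all genes called higher (10.2% in either direction). The groups did not overlap for 8 members, all higher in the mutant (18.6%), against 18.4% of all genes. The counts of calls and of separated members therefore stood near the background.

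H4c9, a histone H4 gene of the chromosome 13 clusters, measured 222, 198 and 234 normalized counts in the wild type, 346, 459 and 481 in the mutant and 144 and 188 in the knockout. All mutant samples were above and both knockout samples were below every wild-type sample. The log2 fold change in the mutant was 0.96 with a standard error of 0.19 (adjusted p = 0.0089), and in the knockout it was -0.40 with a standard error of 0.22 (adjusted p = 0.325, limma).

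H2bc4, a histone H2B gene, measured 419, 322 and 363 in the wild type, 616, 595 and 612 in the mutant and 451 and 520 in the knockout. Mutant samples were highest, knockout samples lay between and wild-type samples were lowest, without overlap. The mutant differed from the wild type by 0.73 on the log2 scale with a standard error of 0.14 (adjusted p = 0.0081) and the knockout by 0.40 (adjusted p = 0.195, limma), which was not called.

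Mutant samples were also separated from the wild type, without passing the test, for both H2A genes whose promoters are shown above. H2ac8 measured 87.7, 50.4 and 87.0 in the wild type and 97.3, 121 and 151 in the mutant (log2 difference 0.73, adjusted p = 0.14). H2ac6 measured 27.9, 33.6 and 16.8 in the wild type, 55.3, 43.8 and 71.3 in the mutant and 55.1 and 70.6 in the knockout, so that both altered genotypes were above the wild type (log2 differences 1.12 and 1.28, adjusted p = 0.074 and 0.13, limma). H2bc8 measured 67.5, 43.0 and 37.6 in the wild type and 74.8, 80.9 and 93.7 in the mutant, with a log2 difference of 0.78 (adjusted p = 0.18).

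The mutant samples differed among themselves. The median log2 ratio of the members to the wild-type mean was 0.36 and 0.38 in mutant samples 1 and 2 and 0.99 in mutant sample 3, where 40 of 43 members were above that mean. Without that sample the median log2 fold change was 0.34 in place of 0.52, and 2 members, with log2 fold changes of 0.87 for H4c9 and 0.72 for H2bc4, were called by limma. Wild-type samples themselves lay between -0.17 and 0.38. The pluripotency sums were 3807, 6621 and 11282 in mutant samples 1, 2 and 3, against 3244 to 5483 in the wild type, so they were also highest in mutant sample 3, and their part in the histone values was not tested. H3c3, the most abundant H3 gene, measured 71.7, 153 and 219 in the mutant and 116, 109 and 136 in the wild type, so the mutant samples lay on both sides of the wild type.

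**Figure D2:**
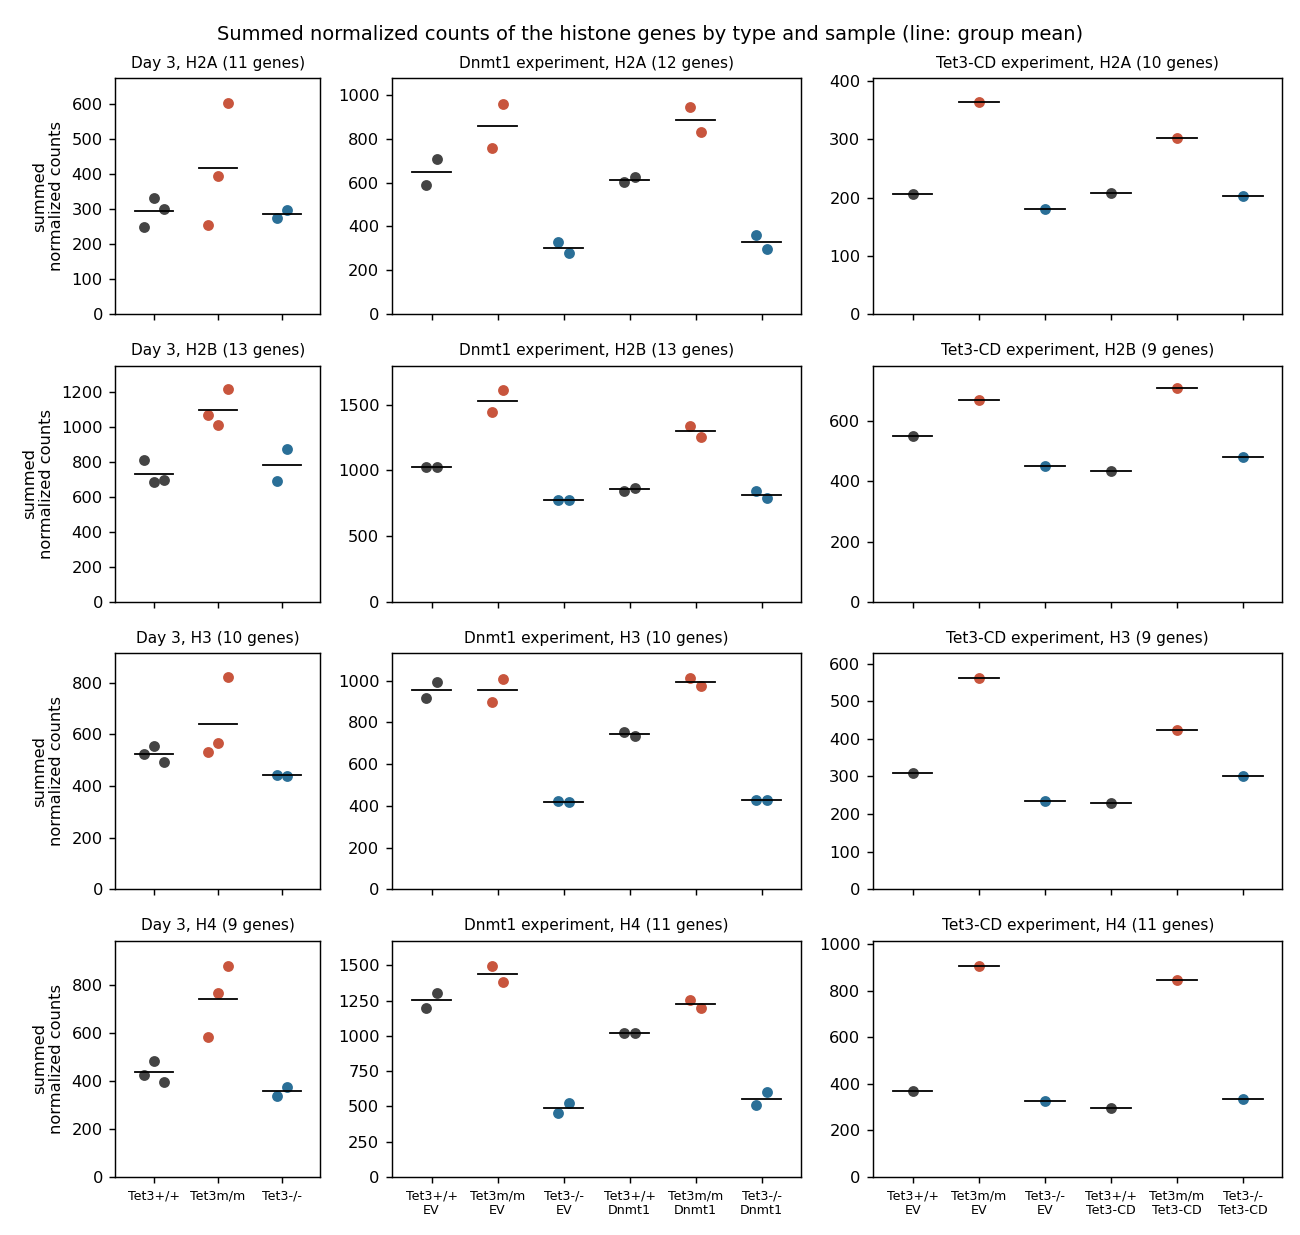
Summed normalized read counts of the H2A, H2B, H3 and H4 genes (rows) per sample (points) in the 3 experiments (columns), with group means as lines; axes start at 0 and tables were normalized separately. In the EV part of the Dnmt1 experiment the knockout samples lie lowest for every type, from 0.387 of the wild-type mean for H4 to 0.753 for H2B, and on day 3 the mutant means lie above the wild type for every type.

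In the knockout on day 3 no member passed the test, and the total depended on H2bc4. The summed counts were 1749 and 1980 in the knockout, 0.940 of the wild-type mean, and the median log2 fold change was -0.19. Without H2bc4 the other 42 members summed to 1298 and 1460 in the knockout against 1521 to 1734 in the wild type, a ratio of 0.854 with no overlap. By type, the ratio to the wild type was 0.975 for H2A, 1.07 for H2B, 0.841 for H3 and 0.818 for H4. Without H2bc4 the H2B genes were at 242 and 350 against 332 to 390, a ratio of 0.818 with overlap. No member was called (0 of 43 by limma, by edgeR and by DESeq2, with 4 at an unadjusted p under 0.05), where 0.642% of all genes were called. In this comparison 7 members were lower and 4 higher without overlap, 16.3% and 9.30%, against 20.4% and 20.8% of all genes. The lower members included H2bc14 at 4.24 and 4.55 in the knockout against 14.9 to 26.0 in the wild type, H3c8 at 29.6 and 36.1 against 42.5 to 80.3, and H2bc6 at 18.2 and 19.1 against 21.5 to 40.5. H2ac15 (15.9 and 21.2 against 25.1 to 64.4) and H3c3 (82.7 and 100.2 against 109 to 136) were also below every wild-type sample.

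Between the altered genotypes on day 3, 36 of 43 members were lower in the knockout than in the mutant, with a median of -0.71. Only H4c9 was called by limma (log2 fold change -1.36, standard error 0.22, adjusted p = 0.0034), 2.33% of the members against 4.33% of all genes called lower (9.73% in either direction), and DESeq2 called 5 members. The count rose to 4 without knockout sample 2 or without mutant sample 1. The groups did not overlap for 15 members, all lower in the knockout (34.9%), against 20.2% of all genes.

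The empty-vector samples of the Dnmt1 experiment gave a clearer picture, with the knockout low across all 4 histone types. The 46 members summed to 3736 and 4031 normalized counts in EV wild type, 4594 and 4965 in EV mutant and 1972 and 1992 in EV knockout. The knockout was at 0.510 of the wild-type mean and the mutant at 1.23 times that mean. Of 46 members, 45 had a negative fold change in the knockout and 29 were called, all lower, which was 63.0% of the members against 13.9% of all genes called lower (24.9% in either direction). The median log2 fold change was -1.16. edgeR called 28 and DESeq2 27 members. The groups did not overlap for 36 members, all lower (78.3%), against 38.3% of all genes.

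Each histone type took part. Among the H4 genes 8 of 11 were called lower with a median of -1.39, led by H4c6 (-2.60), H4c18 (-1.95), H4c2 (-1.94), H4c1 (-1.85) and H4c4 (-1.72). Among the H3 genes 8 of 10 were called lower with a median of -1.24, namely H3c1 (-1.82), H3c8 (-1.64), H3c3, H3c15, H3c7, H3c6, H3c10 and H3c4 (-0.79). For H2A it was 7 of 12 (H2ac15, H2ac10, H2ac22, H2ac12, H2ac8, H2ac7 and H2ac4, from -1.68 to -0.99) with a median of -1.10, and for H2B it was 6 of 13 (H2bc22 at -2.69, H2bc7 at -2.63, H2bc11, H2bc12, H2bc6 and H2bc9) with a median of -1.06. The H4 genes H4c8, H4c9 and H4c11 completed the calls.

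H4c9 measured 654 and 711 in EV wild type, 856 and 776 in EV mutant and 240 and 282 in EV knockout. The knockout samples were far below and the mutant samples above the wild type. The knockout fold change was -1.39 on the log2 scale with a standard error of 0.12 (adjusted p = 5.9e-09), whereas the mutant difference of 0.26 was not called (adjusted p = 0.096, limma).

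H3c3 measured 218 and 266 in EV wild type, 239 and 249 in EV mutant and 77.9 and 96.3 in EV knockout. The mutant samples lay inside the wild-type range and the knockout samples below it. The knockout fold change was -1.46 with a standard error of 0.18 (adjusted p = 4.9e-07, limma).

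H2ac8 measured 166 and 212 in EV wild type, 271 and 404 in EV mutant and 81.2 and 78.3 in EV knockout, so the 3 genotypes were separated in the order knockout, wild type, mutant. Its log2 fold change was -1.22 in the knockout (adjusted p = 3.5e-05) and 0.82 in the mutant (adjusted p = 0.0024, limma).

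H2bc4 did not follow the other genes. It measured 499 and 427 in EV wild type, 460 and 442 in EV knockout and 845 and 886 in EV mutant. The knockout samples lay within the wild-type range (log2 fold change -0.03, standard error 0.11) and the mutant samples far above it (0.91, standard error 0.11, adjusted p = 3.5e-07, limma). Because it is so abundant it carried the H2B sum, and with H2bc4 left out the H2B genes of the knockout summed to 0.570 of the wild-type mean in place of 0.753, and all members to 0.448 in place of 0.510.

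Few other members stood with H2bc4. H2ac6 measured 33.6 and 40.6 in EV wild type, 30.9 and 42.3 in EV knockout and 69.5 and 72.9 in EV mutant, with the knockout samples on either side of the wild type and the mutant samples above it (log2 fold change in the mutant 0.93, standard error 0.32, adjusted p = 0.022, limma). H2bc8 (-0.00), H4c14 (-0.01) and H3c2 (-0.05) also had knockout differences near 0, and H2bc21 was the only member with a positive one (0.61, adjusted p = 0.21), from knockout values of 35.7 and 108 around 41.5 and 39.4 in the wild type. Over all members, medians in the knockout were -1.11 for the 14 members with an extended end, -1.46 for the 17 that stop near the stem-loop and -1.08 for the 14 without the stem-loop letters.

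**Figure D3:**
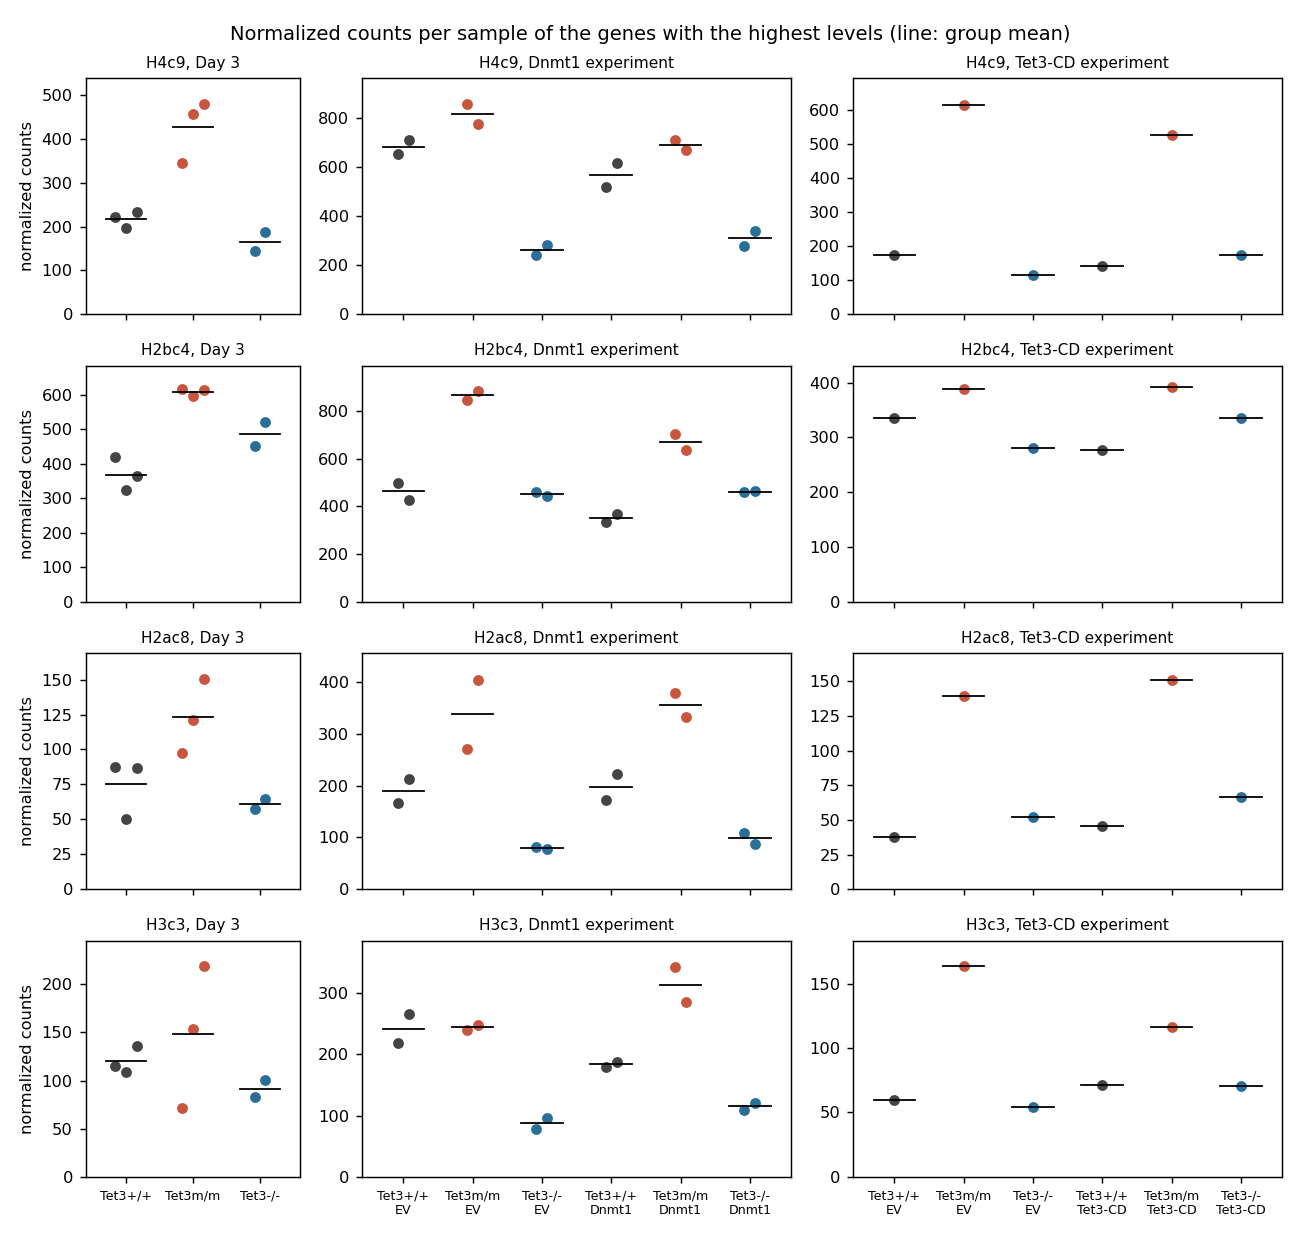
Normalized read counts of H2ac8, H2bc4, H3c3 and H4c9, the members of each type with the highest mean (rows), per sample (points) and group mean (line) in the 3 experiments (columns); axes start at 0. H4c9 is lowest in the EV knockout (240 and 282 against 654 and 711 in EV wild type), whereas H2bc4 is highest in the EV mutant (845 and 886) and its EV knockout samples (460 and 442) lie within the wild-type range.

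In the EV mutant the picture was mixed. Of 46 members, 3 were called higher (H2ac8, H2ac6 and H2bc4) and 1 lower (H3c11), 6.52% and 2.17% against 10.3% and 10.9% of all genes (21.2% in either direction), with a median log2 fold change of 0.23. H3c11 measured 69.2 and 59.1 in the wild type against 26.5 and 46.9 in the mutant (log2 fold change -0.84, adjusted p = 0.044, limma), and 31.4% of its windows were distinct. The summed ratio to the wild type was 1.32 for H2A, 1.49 for H2B, 1.00 for H3 and 1.15 for H4. Without H2bc4 the H2B genes summed to 600 and 731 in the mutant against 531 and 596 in the wild type, a ratio of 1.18. The groups did not overlap for 20 members with higher and 7 with lower values in the mutant (43.5% and 15.2%), against 36.3% and 36.1% of all genes. By transcript end, the median in the mutant was 0.47 for the extended members, of which 10 of 14 lay above the wild type without overlap, 0.02 for those that stop near the stem-loop, of which 3 of 17 did, and 0.22 for those without the letters, of which 7 of 14 did. On day 3 the same medians were 0.78, 0.27 and 0.21, and the difference between these classes was not tested. The count of calls fell to 2 without EV mutant sample 2 or without the wild-type column a. The comparison of knockout with mutant gave 34 members called lower, 73.9% against 20.6% of all genes (39.6% in either direction), with a median of -1.35. This comparison was added after the other results were known.

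Members whose groups were separated in the same direction on day 3 and in the EV samples were H2ac6, H2ac8, H2bc4, H2bc8 and H4c9, higher in the mutant, and H2ac15, H2bc6, H2bc14, H3c3, H3c8 and H4c9, lower in the knockout. These were 11.6% and 14% of the 43 members tested in both experiments, against 11.3% and 11.6% of 17244 genes tested in both, so both shares stood near the background. For H2bc8 the EV values were 61.2 and 78.9 in the wild type against 96.9 and 97.7 in the mutant. For the others of the knockout set the EV values were 73.1 and 64.9 against 29.2 and 14.8 for H2ac15, 67.2 and 58.0 against 25.2 and 29.6 for H2bc6, 23.7 and 32.5 against 15.4 and 10.6 for H2bc14, and 113 and 99.7 against 45.5 and 24.3 for H3c8. H4c9 was the only member in both sets.

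**Figure D4:**
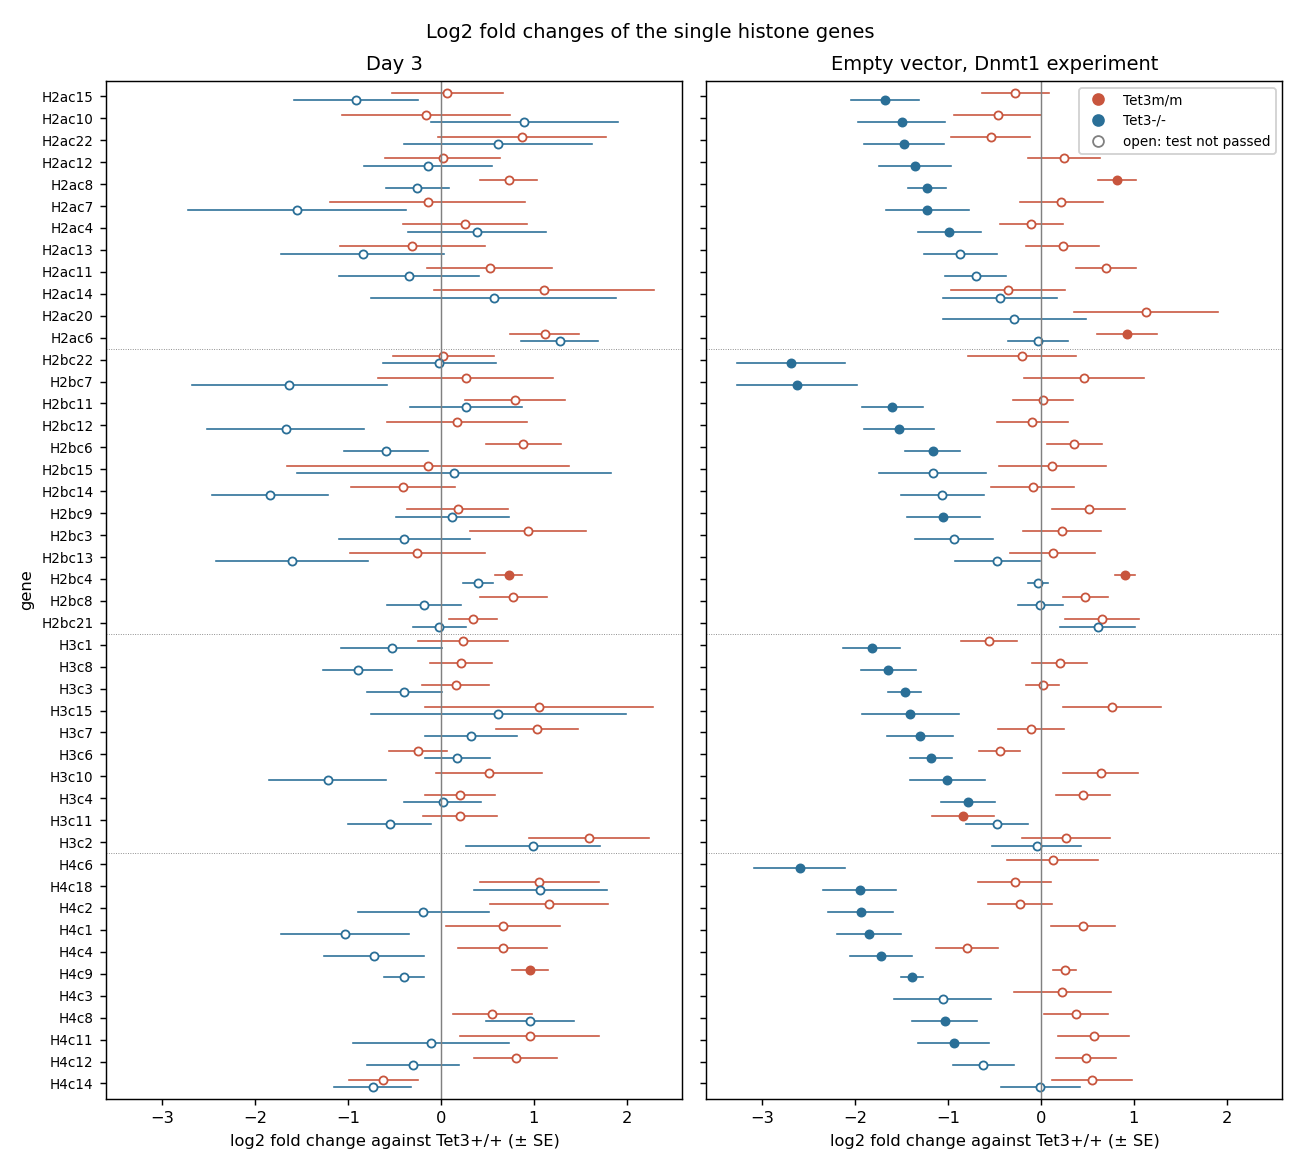
Log2 fold change against Tet3+/+ with standard error for each member, in Tet3m/m (red) and Tet3-/- (blue), on day 3 (left) and with empty vector in the Dnmt1 experiment (right); filled points passed the test. On the right, 29 filled blue points lie below 0 and H2bc4, H2ac6 and H2ac8 are filled red points above it, whereas on the left H4c9 and H2bc4 are the only filled points.

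The members lie in 2 chromosome 13 clusters of 18 and 24 genes and in a chromosome 3 cluster of 4 genes, as the RefSeq annotation places them. In the EV knockout the median log2 fold change was -1.11 and -1.20 in the chromosome 13 clusters and -0.15 in the chromosome 3 cluster, where H3c15 was called lower (-1.40) and H2ac20 (-0.29), H2bc21 and H4c14 were not called. The other genes of chromosome 13 had a median of -0.05, and 7 tested genes that lie inside the clusters without being members (H1f5, Prss16 and Zfp184 in the one, H1f2, H1f3, H1f4 and Hfe in the other) had medians of -0.14 and -0.07, with H1f2 called higher and none called lower by limma. The H1f genes among them are histone genes too and were spread, with H1f5 at -0.85, H1f4 at -0.78, H1f3 at -0.21 and H1f2 at 1.03. Prss16, Zfp184 and Hfe were at 0.25, -0.14 and 0.07.

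Myc-Dnmt1 in place of the empty vector moved the members little within a genotype. Dnmt1 itself was called higher in every genotype (0.64, 0.90 and 1.06 on the log2 scale in wild type, mutant and knockout). In wild-type cells 0 of 46 members were called by limma (7 at an unadjusted p under 0.05, and H3c6 alone by edgeR, by DESeq2 and by limma without either Dnmt1 knockout sample), against 1.17% of all genes, with a median of -0.22. In the mutant 0 were called (4 at an unadjusted p under 0.05, and 0 by edgeR and by DESeq2), against 2.46% of all genes, with a median of -0.08. In the knockout 0 were called (5 at an unadjusted p under 0.05, and 0 by edgeR and by DESeq2), against 3.53% of all genes, with a median of 0.06, and without EV knockout sample 1 there were 3 calls. The summed counts fell from 3736 and 4031 to 3220 and 3244 in the wild type, and were 4594 and 4965 against 4557 and 4258 in the mutant and 1972 and 1992 against 2142 and 2114 in the knockout. In the wild type both Dnmt1 samples were below both EV samples, and in the knockout both were above.

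The genotype differences were still present in the Dnmt1 samples, in comparisons added after the other results were known. The knockout was at 0.658 of the wild-type sum, with 22 of 46 members called lower (47.8% against 13% of all genes, 24.9% in either direction) and a median of -0.87. That count was 14 without Dnmt1 wild-type sample 1. By type, calls were 5 of 12 H2A, 4 of 13 H2B, 6 of 10 H3 and 7 of 11 H4. H4c9 measured 517 and 617 in the wild type and 277 and 340 in the knockout, again without overlap (log2 fold change -0.88, adjusted p = 3.7e-06, limma). The mutant was at 1.36 times the wild-type sum, with 6 members called higher (H2ac8, H2bc4, H2bc6, H3c3, H3c4 and H4c14, against 10% of all genes, 20.2% in either direction) and a median of 0.28, and 3 were called without Dnmt1 mutant sample 1. H2bc4 measured 334 and 367 in the wild type and 703 and 636 in the mutant (0.93, standard error 0.11, adjusted p = 2.6e-07, limma).

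Whether the response to Dnmt1 differed between genotypes was tested as an interaction. For the mutant against the wild type 0 of 46 members were called (4 at an unadjusted p under 0.05, and 0 by edgeR and by DESeq2), against 0.604% of all genes. For the knockout against the wild type 1 member was called, H3c3, against 2.66% of all genes called higher (3.99% in either direction), with a median over the members of 0.31. H3c3 went from 218 and 266 to 180 and 187 with Dnmt1 in the wild type and from 77.9 and 96.3 to 109 and 120.2 in the knockout. The Dnmt1 samples were lower in the one genotype and higher in the other, each without overlap, and the difference of both changes was 0.79 on the log2 scale with a standard error of 0.25 (adjusted p = 0.049, limma). This call was lost in 13 of 21 alternatives, among them DESeq2 and the fits without one of 10 of the 12 samples.

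In the Tet3-CD experiment, with 1 sample per group, the mutant again had the highest sums. The 39 members summed to 1433 in EV wild type, 2504 in EV mutant and 1193 in EV knockout, and to 1171, 2282 and 1322 with Tet3-CD. By type, the EV mutant was at 1.77 times the wild-type sum for H2A, 1.22 for H2B, 1.82 for H3 and 2.47 for H4, and the H4 value rested on H4c9, without which it was 1.51. H4c9 measured 174, 614 and 116 in EV wild type, mutant and knockout and 142, 527 and 173 with Tet3-CD. Of the 38 members above the filter, 18 were past 1.5-fold higher and 1 lower in EV mutant (47.4% and 2.63%), where 20.2% and 16.1% of all genes were, with a median log2 ratio of 0.49. In EV knockout 4 were past 1.5-fold higher and 14 lower (36.8% lower), against 15.4% and 11.7% of all genes, with a median of -0.31. By type, the EV knockout medians were 0.00 for H2A, -0.41 for H2B, -0.36 for H3 and 0.06 for H4. There is no replicate check of these ratios, and 13 members had a mean under 20 in this experiment. Low counts pass 1.5-fold easily, so the shares of all genes are not a matched background for the EV mutant or the EV knockout. The order of the pluripotency sums was different here, 2327 in EV wild type, 10048 in EV mutant and 5680 in EV knockout.

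Tet3-CD against the empty vector gave 4 members past 1.5-fold higher and 13 lower in the wild type (10.5% and 34.2%, against 6.11% and 7.3% of all genes), 4 and 10 in the mutant (10.5% and 26.3%, against 4.58% and 5.53%) and 6 and 8 in the knockout (15.8% and 21.1%, against 9.89% and 11.6%). Both directions were above all genes. Single low counts pass 1.5-fold easily, as H2ac4 (0 against 17.1) and H4c8 (13.8 against 4.27) in the wild type. The abundant H2bc4 was at 277 against 335 there. The shares of all genes are therefore not a matched background, and no effect of Tet3-CD on the family can be read from these counts. Median log2 ratios were -0.30, -0.17 and -0.04. H4c9 was lower with Tet3-CD in the wild type (142 against 174) and in the mutant (527 against 614) and higher in the knockout (173 against 116), as single values.

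The genes that serve the histone supply were compared with their products. Of 15 genes for transcription and end processing of histone mRNA, 0 were called in the EV knockout by limma (median log2 fold change -0.06). Of all genes, 24.9% were called there in either direction. SLBP and NPAT transcripts differed in the EV knockout by -0.03 and -0.06 on the log2 scale. The exonuclease gene Eri1, which trims histone mRNA ends, was called lower in the mutant on day 3 (-0.68, adjusted p = 0.026) and with EV (-0.63, adjusted p = 1.9e-08, limma). In the knockout it differed by -0.18 on day 3 (adjusted p = 0.64), by -0.52 with EV (adjusted p = 3.7e-07, limma), which is under the fold of 1.5 and so not called, and by -0.63 with the Dnmt1 vector, which was called. Of 43 S phase genes, 3 were called lower in the EV knockout (Gins2 at -0.89, Ung at -0.80 and Mcm5 at -0.73) and 0 in the EV mutant, with medians of -0.27 and -0.05. Of all genes, 13.9% and 10.9% were called lower in these comparisons, so the S phase calls were not above the background. On day 3 the ribonucleotide reductase gene Rrm2 was the only S phase gene called in the mutant (-0.63), and 0 were called in the knockout. Of all genes, 10.2% and 0.642% were called in either direction there. With the Dnmt1 vector 13 of 43 S phase genes were called lower in the knockout, above the 13% of all genes called lower there.

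Summed S phase counts were 215375 to 218295 in EV wild type, 204947 to 205292 in EV mutant and 178999 to 179843 in EV knockout, lowest in the knockout without overlap. On day 3 they were 195564 to 216624 in the wild type, 170156 to 200328 in the mutant and 153097 to 183334 in the knockout.

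Other RNAs without a poly(A) tail give a view of the library itself. Of 30 tested RNAs of this kind in the Dnmt1 experiment, 3 were called lower in the EV knockout, 10% of the list against 13.9% of all genes, with a list median of -0.45. They were the RNase P RNA Rpph1 (-3.03), the telomerase RNA Terc (-2.24) and the RNase MRP RNA Rmrp (-1.77). Rpph1 measured 398 and 420 in EV wild type, 504 and 415 in EV mutant and 60.1 and 40.2 in EV knockout. The list summed to 1310 to 1456 in EV wild type, 1383 to 1408 in EV mutant and 729 to 908 in EV knockout, so its sum was below the wild type in the same samples as the histone sums. Without Rpph1 the list summed to 669 and 868 in EV knockout against 912 and 1037 in EV wild type, still without overlap. On day 3, 0 of 37 were called in either genotype, with medians of -0.54 in the mutant and -0.31 in the knockout. There the list summed to 1272 to 1578 in the wild type, to 961 to 1285 in the mutant, which is the opposite side from the histone sums, and to 943 to 1150 in the knockout, below the wild type without overlap. The part of unselected RNA in the histone values was not tested.

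Among the linker histone H1 genes, H1f2 alone was on the other side from the core genes in the EV knockout. H1f2, a linker histone gene inside a chromosome 13 cluster, was higher in the knockout, at 1692 and 1635 normalized counts on day 3 against 822, 592 and 951 in the wild type, and at 1136 and 1064 against 543 and 531 with EV. Knockout samples were above all wild-type samples in both experiments, by 1.10 (adjusted p = 0.046) and 1.03 (adjusted p = 6.5e-08, limma) on the log2 scale. The median of the 5 tested H1 genes in the EV knockout was -0.78. H1f1 was called lower there (-1.11), whereas H1f5 (-0.85, adjusted p = 0.090), H1f4 (-0.78, adjusted p = 0.057) and H1f3 (-0.21, adjusted p = 0.51, limma) were not called. H1f2 was also called higher in the EV mutant (0.61). The 11 tested replacement variant genes had a median of -0.10 in the EV knockout, where H1f10 was the only one called (-0.73). Of 15 histone chaperone genes 0 were called there, and Asf1b was called lower in the EV mutant (-0.67). Of all genes, 24.9% were called in either direction in the EV knockout and 21.2% in the EV mutant.

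**Figure D5:**
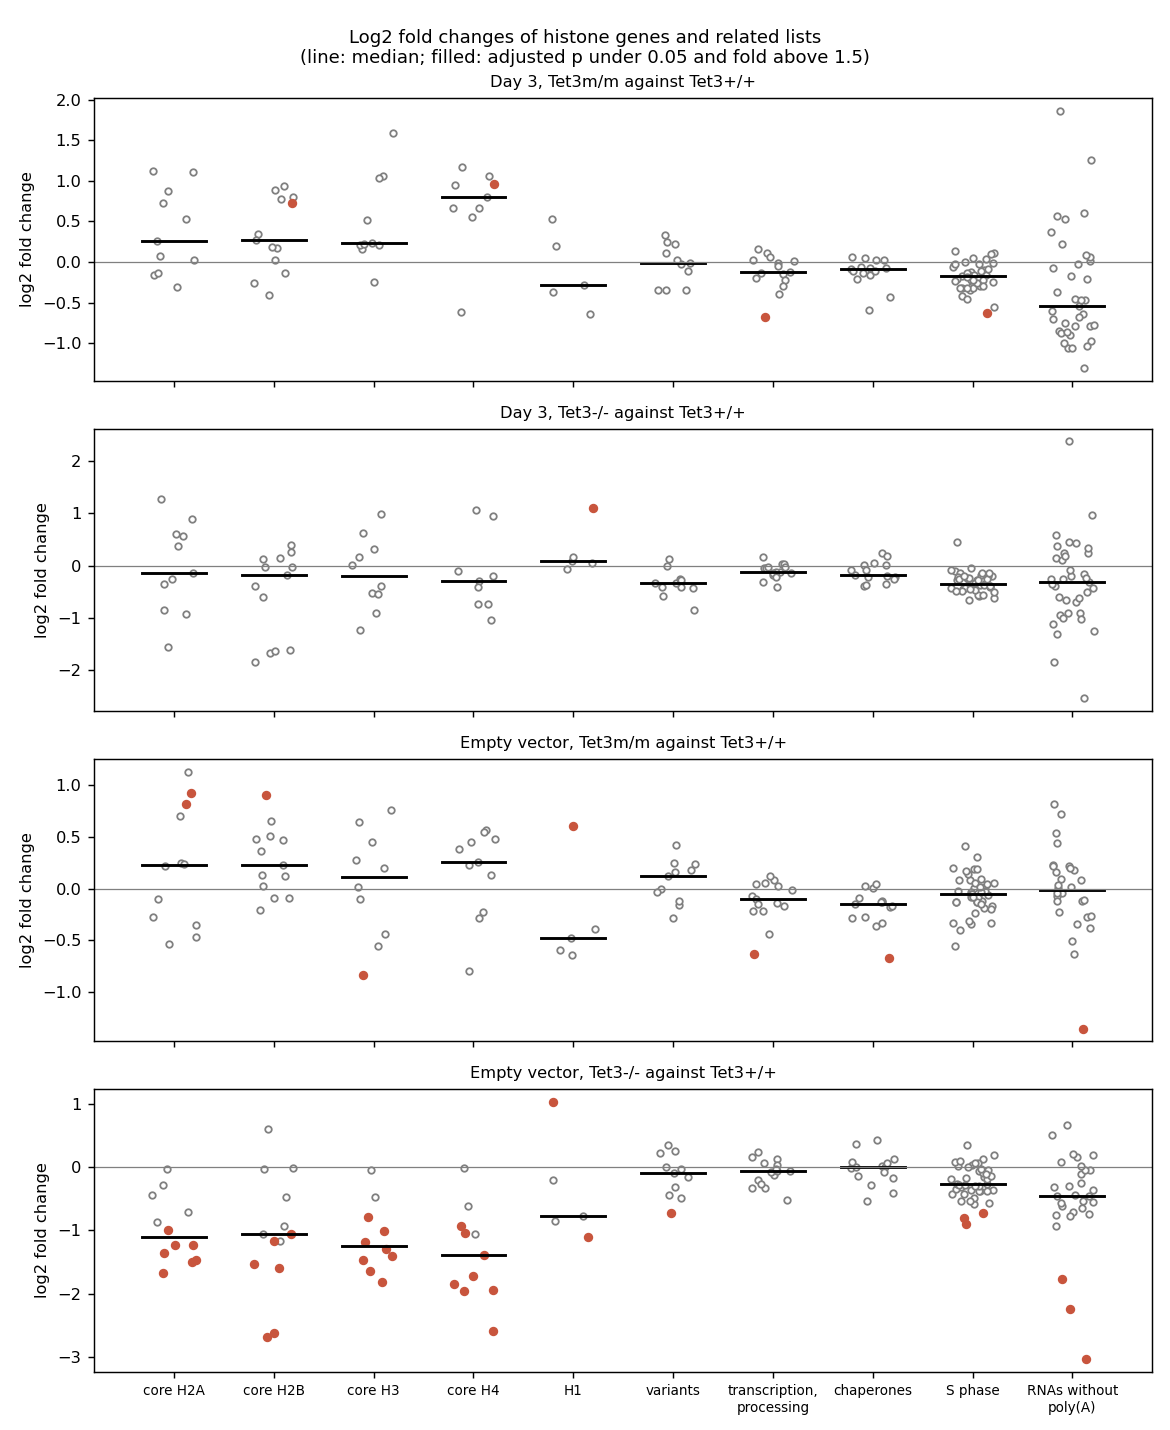
Log2 fold changes against Tet3+/+ of the core histone members by type and of the comparison lists (points, filled where called, with the median as a line) for Tet3m/m and Tet3-/- on day 3 and with empty vector in the Dnmt1 experiment. In the EV knockout the medians are -1.10 for H2A, -1.06 for H2B, -1.24 for H3 and -1.39 for H4, against -0.27 for S phase genes, -0.45 for RNAs without a poly(A) tail and -0.06 for transcription and processing genes.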

How the data were processed

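RNA was extracted with the RNeasy Mini kit, and per the study's methods mRNA libraries were sequenced on an Illumina instrument, trimmed with Trim Galore 0.6.7, aligned with STAR 2.7.9a to mm39 and counted per gene with featureCounts using the largest overlap. The labels' processing notes list mm10. Strand and multiple-match settings and the RNA selection are not given in the sources used here. The authors deposited signal values that are counts divided by DESeq2 size factors, with each of 3 tables normalized separately. The division could be undone, and 100.0% of values were whole reads within 0.01.

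Genes with a mean of at least 10 were tested on log2(value + 1) with limma 3.58.1 (limma-trend, R 4.3.3), all groups of an experiment in 1 fit, with Benjamini-Hochberg adjustment over all genes. In the Tet3-CD experiment ratios were taken with no test. Alternatives used edgeR 4.0.16, DESeq2 1.42.0, other filters, pseudocounts and scaling, only the groups compared, no fold threshold, a replicate block and each sample left out. The fits were tested on simulated data. Named were members called in any comparison, the highest of each type, those separated alike on day 3 and with EV, and, from each other list, called genes with the largest changes, plus Slbp, Npat, Tet3 and Dnmt1. Members and lists were chosen with earlier results of these data known. Other genes, sums without H2bc4, H4c9 or Rpph1 and 3 of 13 comparisons were chosen after values were seen. No within-group pair of samples agreed within sampling noise (chi-square per gene 3.91 to 85.5). Promoters and gene positions came from RefSeq, GRCm38.p6.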

Additional observations from a re-analysis of the deposited data

Results flagged for a closer look

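For H3c3 the effect of the Dnmt1 vector differed between genotypes when the difference itself was tested. The change in the knockout minus the change in the wild type was 0.79 on the log2 scale with a standard error of 0.25 (adjusted p = 0.049, limma, over all genes). Both Dnmt1 samples were below both EV samples in the wild type and above them in the knockout. Of 46 members this was the only one called in that interaction by limma, and the call was lost in 13 of 21 alternatives.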

How the results depend on the processing

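Fold changes of single members called in the planned comparisons did not reverse under any alternative run, but some calls were lost. After the H3c3 interaction, the calls lost most often were H3c11 in the EV mutant and H3c10 and H4c11 in the EV knockout. The single members called in the 3 added comparisons were not followed in this way. The counts of members called changed as follows. DESeq2 gave 5 for the knockout against the mutant on day 3, 1 for Dnmt1 against EV in the wild type and 0 for the interaction in the knockout, and edgeR gave 1 for Dnmt1 against EV in the wild type. With only the groups compared in the fit, Dnmt1 against EV gave 3 in the wild type and 1 in the mutant, and the interaction in the knockout gave 0, as did a pseudocount of 5. With no fold threshold, Dnmt1 against EV gave 1 in the wild type and 1 in the mutant. With a mean of at least 50, fewer members were tested, and the calls were 14 for EV knockout against wild type, 17 for EV knockout against mutant and 11 for knockout against wild type with the Dnmt1 vector. In the Tet3-CD experiment the same filter left 6 members, with median log2 ratios of -0.21 and 0.30 for Tet3-CD against EV in the wild type and in the knockout and 0.96 and -0.20 for EV mutant and EV knockout against wild type.

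Leaving out 1 sample at a time gave 2 to 3 calls for the mutant and 0 to 0 for the knockout against the wild type on day 3, 1 to 4 for knockout against mutant on day 3, 2 to 5 for EV mutant, 21 to 32 for EV knockout, 28 to 37 for EV knockout against mutant, 3 to 6 and 14 to 22 for mutant and knockout with the Dnmt1 vector, 0 to 1, 0 to 0 and 0 to 3 for Dnmt1 against EV in wild type, mutant and knockout, and 0 to 0 and 0 to 2 for the interactions of mutant and knockout. The median of the members moved from 0.34 to 0.69 (mutant) and from -0.40 to -0.04 (knockout) on day 3, from -1.30 to -0.97 in the EV knockout and from 0.16 to 0.32 in the EV mutant, and it changed sign for Dnmt1 against EV in the mutant (-0.08 to 0.04).

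Samples with the same replicate number did not deviate together (correlations from -0.098 to 0.082 on day 3 and from -0.053 to 0.029 in the Dnmt1 experiment). Whether they share more than a number, such as a clone, cannot be told from these correlations. With the replicate block there were 2, 0 and 1 calls for the day 3 comparisons, as without it, 0 for Dnmt1 against EV in the mutant and in the knockout, and, in a block added after seeing the data, 6 and 21 for mutant and knockout with the Dnmt1 vector and 34 for EV knockout against mutant. For the comparisons that use the wild-type EV samples, no paired analysis was possible because those columns carry no distinct numbers. The Tet3-CD values come from no test.

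With 1 read worth 0.804 to 1.30 normalized counts, members with means near 10 rest on few reads, and differences in them were hard to detect at this depth.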
